A study of Dugesia japonica with 19 samples.

Results

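Trunk and tail pieces of the regenerating planarian Dugesia japonica, a freshwater flatworm, were compared day by day at sites of N6-methyladenosine (m6A) that could be read in both. A member site had at least 10 reads in trunk and in tail on the same day, on at least 3 days. Of 5847 sites on 2882 contigs listed in the whole series, 3600 were listed in trunk or tail, 1086 in both on a same day, and 77 on 37 contigs met this rule, giving 382 pairs of site and day. Contigs listed in 1 tissue only were described as well.

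The study followed m6A along the body axis during regeneration by m6A-REF-seq. It made 18 tissue libraries, 1 for each of 3 body regions on days 0, 1, 3, 5, 7 and 10. The groups used here are 6 trunk libraries and 6 tail libraries, each from MazF-treated messenger RNA of pieces pooled from 10 to 20 animals, with head libraries as side values. The labels give no strain, age or further treatment, and they do not say what day 0 counts from. A single library transcribed in vitro from intact animals, which carries no modification, was the control.

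N6-methyladenosine is the most common internal modification of eukaryotic messenger RNA, placed mainly by a methyltransferase complex that contains METTL3. MazF is a bacterial endoribonuclease that cuts RNA at ACA when the adenosine is unmethylated and spares the motif when it is methylated. The uncut share, uncut reads over all reads at a site, is therefore read as the methylated share, and the m6A level is that share minus the share in the control. Planarians rebuild missing regions from dividing stem cells called neoblasts, and trunk and tail pieces both regrow a head.

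The contigs come from a transcript assembly and carry no gene names in the files, so sites are named by contig, position and strand, with the shared prefix TRINITY_ dropped. Coordinates are positions on these contigs, not on a genome, and whether a site lies in a coding region or a UTR is not known here. For the same reason no marker gene was available to check the labelled tissues. No source states the filter behind the lists. In the values, every listed site had a level of at least 0.1, and at least 11 reads were uncut in the library or in the control, so low uncut shares appear to be missing from the data.

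Reads at listed sites came to between 112555 and 834034 in trunk libraries and between 12642 and 657796 in tail libraries. The tail library of day 7 stood apart from the other 5 tail libraries, which had 12642 to 90729 reads. The counts of called sites and of contigs listed in 1 tissue are given without day 7 as well. Tail reads summed over days include that library where the site was used on day 7. The median reads at a member site were higher in trunk at 67 of the 77 sites and higher in tail at 10. Total sequencing depth is unknown, since only listed sites are counted. Each tissue had 1 library a day, so the days served as replicates. The p-values measure the spread between libraries of pooled pieces, which may be technical and also holds any change of the tissue difference over the days. Whether both tissues were prepared together is not stated, so a difference of preparation and one of tissue cannot be told apart.

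The uncut share was lower in trunk than in tail at 11 member sites on 7 contigs and higher at 1. Both counts come from limma's test with day as a block, at a Benjamini-Hochberg adjusted p under 0.05. They make 14.3% and 1.3% of the 77 sites tested, or 15.6% together. At an unadjusted p under 0.05 there were 21 lower and 2 higher. The median difference, trunk minus tail, was -0.0018 over all 77 sites and -0.127 over the 11. A quasi-binomial model on the same reads called 26 lower and 6 higher, including all 12, which is 33.8% and 7.79% of the sites. On the log2 odds scale 20 were lower and 16 higher, a scale on which a site without a cut read takes a value set by its number of reads. Without day 7 there were 10 lower and 1 higher among 67 sites tested. Over the 6 days left out in turn 9 to 13 of 67 to 76 sites were called.

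At most member sites the difference was small. The mean difference was below 0 at 47 sites, above 0 at 18 and exactly 0 at 12, where no read was cut in either tissue on any used day. At 55 sites it was smaller than 0.05 in either direction, at 7 it reached 0.2 and at 5 it reached 0.5, always lower in trunk in those 7. All 7 had a control uncut share under 0.2, as 21 of the 77 sites did. At those 21 the median difference was -0.026, and at the other 56 it was -5.6e-05. Under the limit read from the values, trunk and tail both had to lie at least 0.1 above the control. A higher control share therefore leaves less room for a difference, so this contrast is partly set by the listing. The days of both tissues did not overlap at 23 sites (29.9%), of which 21 were lower in trunk and 2 higher. The minus strand of the contig held 53 of the 77 sites and 11 of the 12 called sites.

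**Figure D1:**
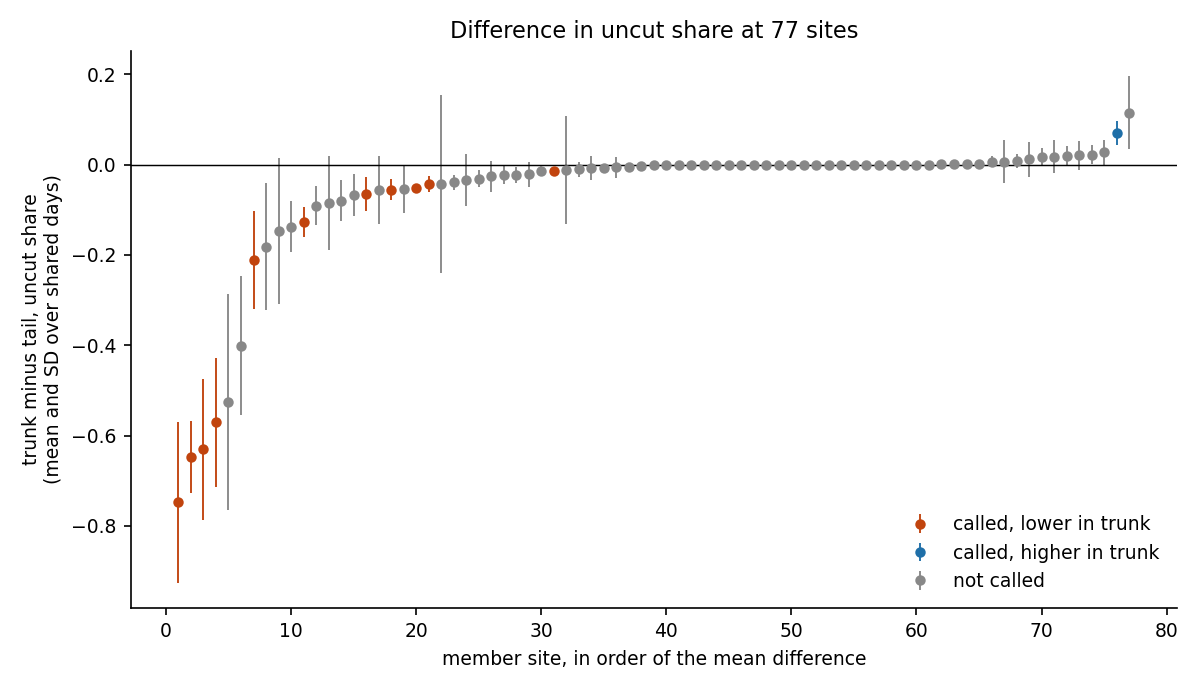
Mean difference in uncut share, trunk minus tail, at the 77 member sites in order of size (points), with the SD over the days each site was used (bars). Red points are the 11 sites called lower in trunk, the blue point is the 1 called higher, and grey points were not called. Most points lie on or near 0, and 7 lie at -0.2 or below.

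The largest called difference was at position 521 of DN11867_c10_g1_i1 (minus strand, contig length 1601 bases). In trunk the uncut share was 0.191, 0.172, 0.130 and 0.515 on days 1, 5, 7 and 10, on 47, 64, 54 and 33 reads. In tail none of 1133 reads was cut on the same 4 days, which allows a cut share of up to 0.265%. Every trunk day lay far below every tail day, and day 10 was the highest in trunk. The difference was -0.748 (SE 0.0814, limma adjusted p = 0.0113, lower on 4 of 4 days), and without day 1, 5 or 7 the call was lost, at an adjusted p of up to 0.0674. The control uncut share was 0.0289 (788 of 27271 reads), and no head library listed the site. Trunk day 7 lay only just past the limit of 0.1 above the control. A trunk day or head library with a lower share would not be listed, which cannot be told apart from too few reads.

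At position 613 of DN6740_c0_g1_i1 (minus strand, contig length 2407 bases), trunk had uncut shares of 0.286, 0.364, 0.237 and 0.402 on days 0, 5, 7 and 10. Tail had 1, 0.941, 0.955 and 0.980 on those days. The tissues were separated by more than the range within either of them. The mean was 0.322 ± 0.0745 in trunk and 0.969 ± 0.0262 in tail (SD, n = 4 days), a difference of -0.647 (SE 0.0367, limma adjusted p = 0.00261). The 2 head days with at least 10 reads had 0.184 and 0.221, an average of 0.202, below trunk. The control share was 0.0821, and a head day less than 0.1 above it would not be listed. The average therefore covers only head days that passed this limit.

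Position 225 of DN1930_c0_g2_i6 (minus strand, contig length 3828 bases) had partial cutting in trunk. Its uncut share there was 0.286, 0.292, 0.338, 0.286 and 0.541 on days 0, 3, 5, 7 and 10. In tail it was 1 on the first 4 of these days and 0.895 on day 10. Day 10 brought the tissues closest, with the highest trunk value and the lowest tail value. The difference was -0.631 (SE 0.0654, limma adjusted p = 0.00513, lower on 5 of 5 days). The trunk values rested on 14 to 71 reads and the tail values on 14 to 34.

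The trunk and tail counts of day 0 were the same at 3 sites on 3 contigs: position 613 of DN6740_c0_g1_i1, position 225 of DN1930_c0_g2_i6 and position 243 of DN171911_c1_g1_i1. Each had 4 uncut of 14 reads in trunk and 18 of 18 in tail, while their reads differed on the other days. Whether reads were assigned to more than 1 contig was not tested. Without day 0 the first of these sites differed by -0.624 (limma adjusted p = 0.022) and the second by -0.610 (limma adjusted p = 0.0239).

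Position 339 of DN155747_c0_g1_i1 (minus strand, contig length 1024 bases) was deeply read in both tissues on all 6 days. In trunk its uncut share was 0.202, 0.313, 0.513, 0.555, 0.418 and 0.552 from day 0 to day 10, on 84 to 890 reads. In tail it lay between 0.986 and 1, on 145 to 8432 reads. No trunk day came near a tail day, and trunk was lowest on days 0 and 1. The mean was 0.426 ± 0.144 in trunk and 0.997 ± 0.0054 in tail (SD, n = 6), a difference of -0.571 (SE 0.0549, limma adjusted p = 0.00261). In head the mean was 0.461 ± 0.0853 (n = 6), within the range of the trunk days. The control had 3758 uncut of 42210 reads, a share of 0.0890.

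**Figure D2:**
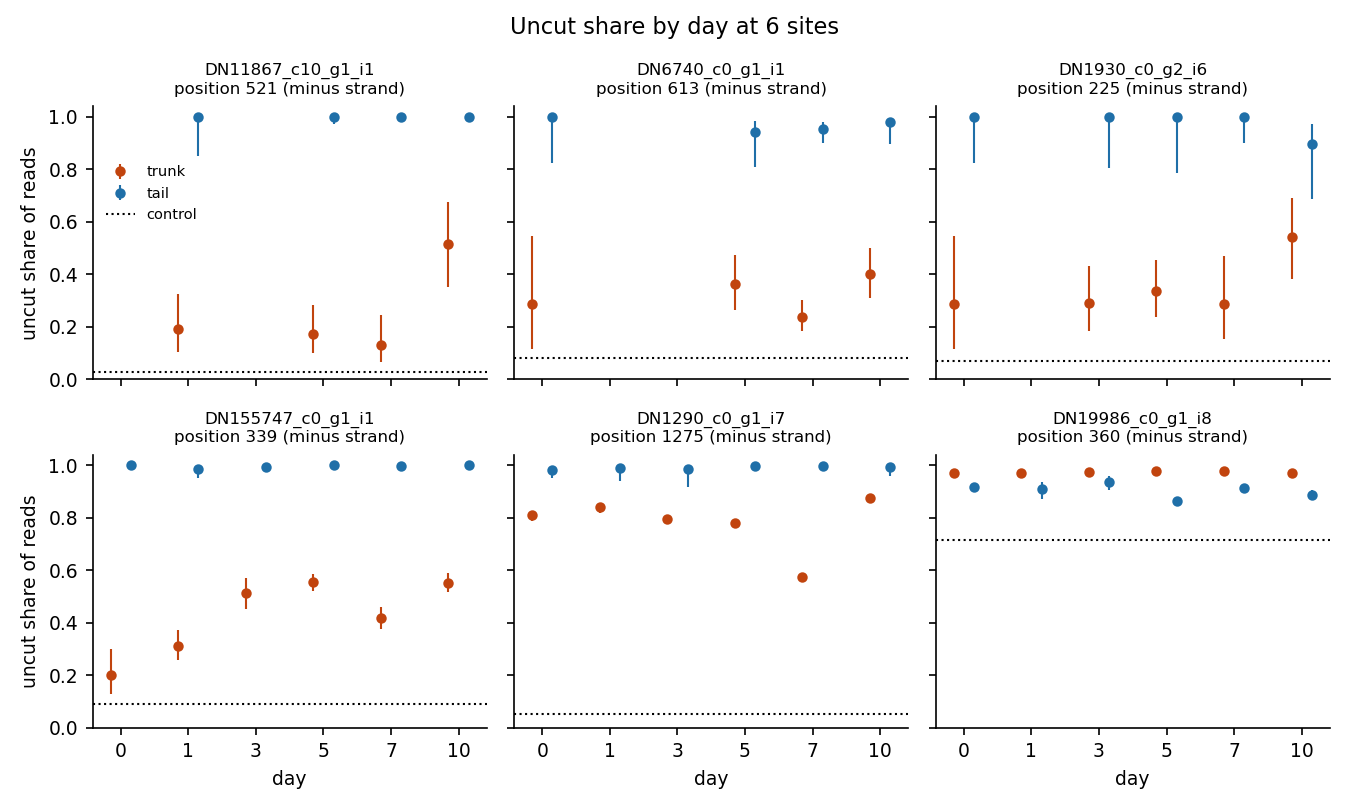
Uncut share of reads (vertical axis) by day (horizontal axis, days in order and not to scale) at the 5 sites with the largest called differences and at the 1 site called higher in trunk. Red points are trunk, blue points are tail, bars are 95% Wilson intervals for counting error and the dotted line is the control. At the first 4 sites trunk lies between 0.130 and 0.555 and tail at 0.895 or above, while at position 360 of DN19986_c0_g1_i8 trunk lies slightly above tail.

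Along DN155747_c0_g1_i1 the difference was uneven. At position 232, which is 107 bases from position 339, the uncut share averaged 0.943 ± 0.0169 in trunk and 0.986 ± 0.0026 in tail (SD, n = 6). Every trunk day there lay below every tail day, and the difference was -0.0431 (SE 0.0068, limma adjusted p = 0.00952). At position 581, 242 bases on the other side, trunk averaged 0.993 ± 0.0092 while none of 6285 tail reads was cut. Day 7 gave 3780 of these tail reads, and the other days gave 62 to 1037 each. No difference was called there with limma (adjusted p = 0.262), but the quasi-binomial model called it lower in trunk (adjusted p = 0.0164). The differences at neighbouring sites of this contig thus varied from -0.0069 to -0.571.

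DN1290_c0_g1_i7, a contig of 3433 bases, held 8 member sites, and 3 of its 7 minus-strand sites were called lower in trunk. At position 1275 trunk had uncut shares of 0.809, 0.840, 0.797, 0.780, 0.576 and 0.875 from day 0 to day 10, against 0.983 to 0.998 in tail. All trunk days were below all tail days, and day 7 was the lowest in trunk. The difference was -0.211 (SE 0.0418, limma adjusted p = 0.0202), a call that was lost without day 0, 1, 3 or 5. At position 2022 the means were 0.869 ± 0.0088 in trunk and 0.924 ± 0.0213 in tail (difference -0.0557, SE 0.0088, limma adjusted p = 0.00952), beside a control share that rested on 10 reads. On the log2 odds scale position 2022 was not called (adjusted p = 0.0945).

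At position 1999 of the same contig trunk averaged 0.987 ± 0.0026 and tail 0.9999 ± 0.00019, with 214 of 18118 reads cut in trunk and 3 of 8395 in tail. The difference was small but of 1 sign on all 6 days, at -0.0131 (SE 0.0012, limma adjusted p = 0.00261). Between the called sites, position 1781 differed little, and its uncut share was 0.996 ± 0.0035 in trunk and 0.997 ± 0.0052 in tail (limma adjusted p = 0.59). Position 1951 had 0.552, 0.669, 0.774, 0.909, 0.857 and 0.944 in trunk from day 0 to day 10 and averaged 0.966 ± 0.0217 in tail. The trunk value was below that of tail on 6 of 6 days, and day 10 alone fell inside the tail range of 0.9275 to 0.988. The difference of -0.182 did not pass with limma (adjusted p = 0.0782) but did with the quasi-binomial model (adjusted p = 0.00047). In head this position averaged 0.320, far below both. It falls outside the naming rule and was chosen after its values were seen, as was position 1781.

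On DN678_c0_g2_i4, a contig of 5705 bases with 18 member sites, 2 were called lower in trunk. Position 570 averaged 0.914 ± 0.0267 in trunk and 0.979 ± 0.0186 in tail (SD, n = 6; difference -0.0646, SE 0.0146, limma adjusted p = 0.0346). The highest trunk day, at 0.963, overlapped the lowest tail day, at 0.955, and the call was lost without day 0, 3, 5, 7 or 10. Position 1032 was usable on days 0, 1 and 3 only, with 0.951, 0.950 and 0.936 in trunk and 0.998, 0.999 and 0.998 in tail (difference -0.0526, SE 0.0046, limma adjusted p = 0.0202). Both tissues were far apart there relative to their spread, on at least 1218 reads a day. The control share at position 1032 was 0.818, and a day less than 0.1 above it would not be listed. The spread therefore covers only days that passed this limit, and why the other days are missing was not tested. The median difference over the 18 sites was -0.00011.

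Some other sites of DN678_c0_g2_i4 were almost free of cut reads in both tissues, but not all. At position 2059 the trunk libraries had 26 cut of 784739 reads and the tail libraries 7 cut of 144156. At position 2616 no read was cut among 67138 in trunk and 19989 in tail, against a control uncut share of 0.194. The tail reads there were uneven, with a median of 128 a day and a lowest day of 25. Position 3307 was the second of the 2 sites that were higher in trunk on every used day, at 0.998 ± 0.00098 in trunk and 0.978 ± 0.0207 in tail (n = 5, difference 0.0200, limma adjusted p = 0.211). The quasi-binomial model called position 3307 higher in trunk (adjusted p = 0.00406). That model also called positions 2967 and 4250 higher, and positions 220, 448, 1311, 1596, 3538 and 4212 lower, none of them called with limma. At position 1596 every trunk day lay below every tail day, at 0.977 ± 0.0186 in trunk and 0.9997 ± 0.00064 in tail (n = 6). Position 3538 was cut in both tissues, at 0.661 ± 0.126 in trunk and 0.746 ± 0.0747 in tail (n = 6). Position 2059 and position 2616 were chosen for their depth after their values were seen, and positions 1596 and 3538 for their uncut shares.

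**Figure D3:**
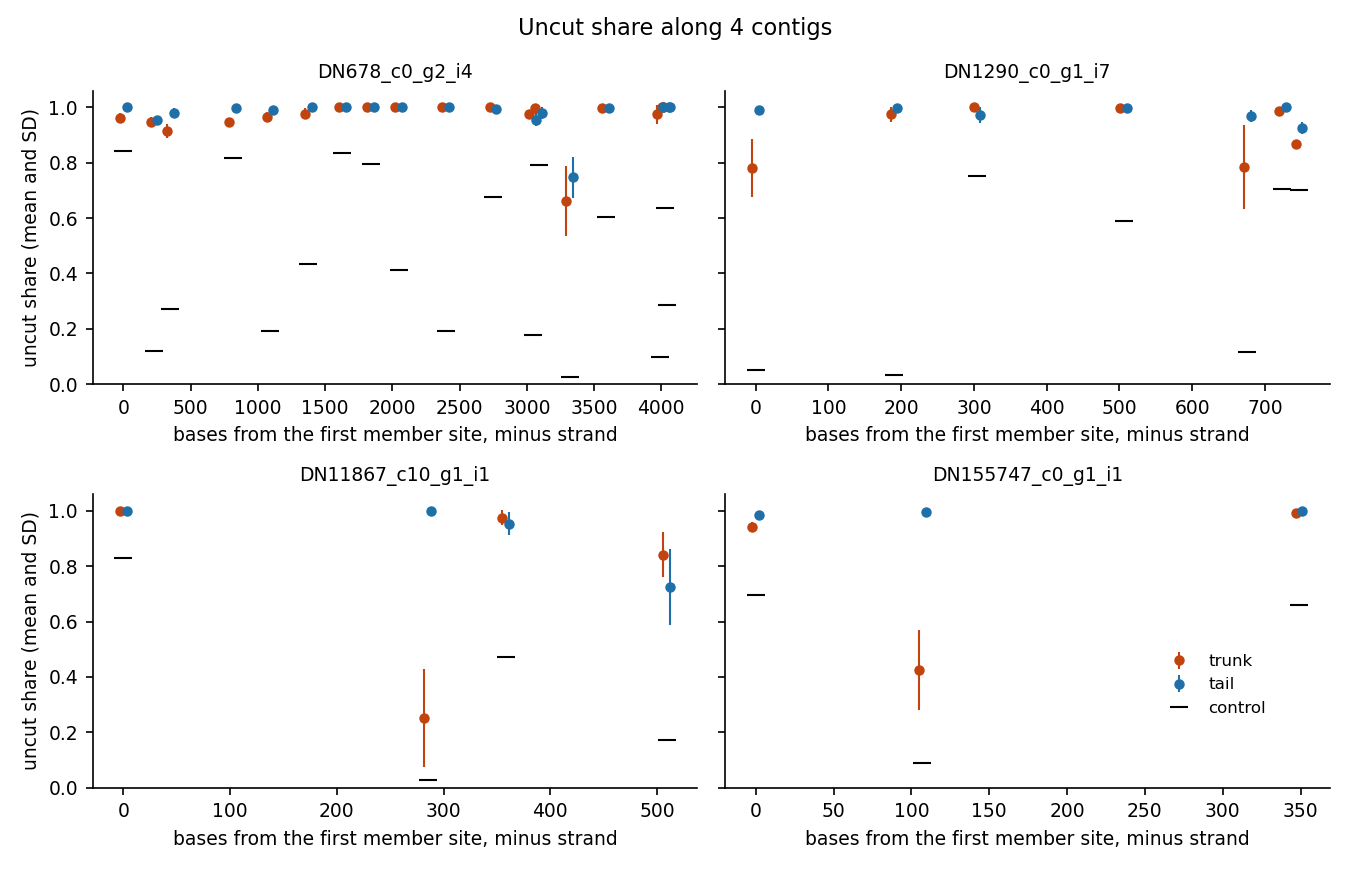
Mean uncut share with its SD over days (vertical axis) at the minus-strand member sites of 4 contigs, placed by their distance in bases from the first such site (horizontal axis). Red points are trunk, blue points are tail and black dashes are the control. Wide gaps between trunk and tail sit at single positions, while most other sites lie near 1 in both tissues.

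Position 2353 of DN1568_c0_g1_i6 (plus strand, contig length 3975 bases) was the 1 called site on that strand. In trunk its uncut share was 0.835, 0.852, 0.852, 0.896, 0.872 and 0.922 from day 0 to day 10, and in tail it was 1 on the first 4 days, 0.997 on day 7 and 0.995 on day 10. Every trunk day was lower than every tail day. The difference was -0.127 (SE 0.0131, limma adjusted p = 0.00261), and head averaged 0.950 ± 0.0419 (n = 6), between both.

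The 1 site called higher in trunk was position 360 of DN19986_c0_g1_i8 (minus strand, contig length 1196 bases). In trunk its uncut share was 0.971, 0.972, 0.974, 0.979, 0.978 and 0.972 from day 0 to day 10, and in tail 0.916, 0.908, 0.936, 0.863, 0.914 and 0.889. Trunk varied little and lay above tail on each day, on at least 1362 reads in trunk and 295 in tail. The difference was 0.0700 (SE 0.0105, limma adjusted p = 0.00939), and head averaged 0.924 ± 0.0144. On the plus strand of the same contig position 110 went the other way, at 0.814 ± 0.0950 in trunk and 0.951 ± 0.0447 in tail (n = 4). It did not pass with limma (adjusted p = 0.0518) but did with the quasi-binomial model (adjusted p = 0.039). That position was chosen after its values were seen.

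Among sites lower in trunk on every used day, position 243 of DN171911_c1_g1_i1 (plus strand, contig length 568 bases) had the largest difference that was not called. Trunk had uncut shares of 0.286, 0.308, 0.5 and 0.803 on days 0, 1, 5 and 10, and none of 86 tail reads was cut, which allows up to 3.49%. The tissues did not overlap, but the trunk values were spread widely. The difference was -0.526 (SE 0.11, limma adjusted p = 0.0599), and it passed in 5 of the alternatives, with an adjusted p as low as 0.00019.

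On DN11867_c10_g1_i1 the strong difference at position 521 also stood alone. At position 236 no read was cut among 1849 in trunk and 223 in tail. At position 594, 73 bases from position 521, the uncut share was 0.975 ± 0.0282 in trunk and 0.953 ± 0.0413 in tail (n = 3, limma adjusted p = 0.325). Position 745 averaged 0.840 ± 0.0811 in trunk and 0.725 ± 0.137 in tail (n = 5), a difference of 0.115. It did not pass with limma (adjusted p = 0.083) but did with the quasi-binomial model (adjusted p = 0.0479). Head was lower than both at 0.340.

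Averaged over the member sites usable on a day, the mean uncut share of trunk was below that of tail on each of the 6 days. These were 61, 46, 53, 74, 75 and 73 of the 77 sites from day 0 to day 10, so each day's mean rests on a different set. It was 0.899, 0.905, 0.926, 0.921, 0.909 and 0.931 in trunk and 0.976, 0.970, 0.970, 0.973, 0.981 and 0.974 in tail from day 0 to day 10. No trunk day reached the lowest tail day. The mean was 0.915 ± 0.0128 in trunk and 0.974 ± 0.0040 in tail (SD, n = 6 days), and the daily difference lay between -0.0771 and -0.0423, with a mean of -0.0589. Over the 38 sites usable on all 6 days the mean difference was -0.0373. With reads summed over sites it was -0.0127, and there DN678_c0_g2_i4 weighed most, with 88.1% of listed-site reads in trunk and 59.9% in tail. Without that contig it was -0.0744. No p is given for these means, since the sites were chosen with results of these data known.

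More member sites were free of cut reads in tail. The share of sites with no cut read was 36.4% ± 4.66 in trunk and 60.03% ± 6.18 in tail (SD, n = 6), a mean difference of -23.7 percentage points, lower in trunk on 6 of 6 days. Trunk was more deeply read, and a cut read is more easily seen with more reads. When the expected share was computed at the lower of the paired read numbers, it was 48.8% ± 2.71 in trunk and 61.8% ± 5.59 in tail, a difference of -13.1 percentage points and still lower in trunk on 6 of 6 days. Over all used days, 22 sites had a cut read in trunk only, 4 in tail only and 12 in neither.

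**Figure D4:**
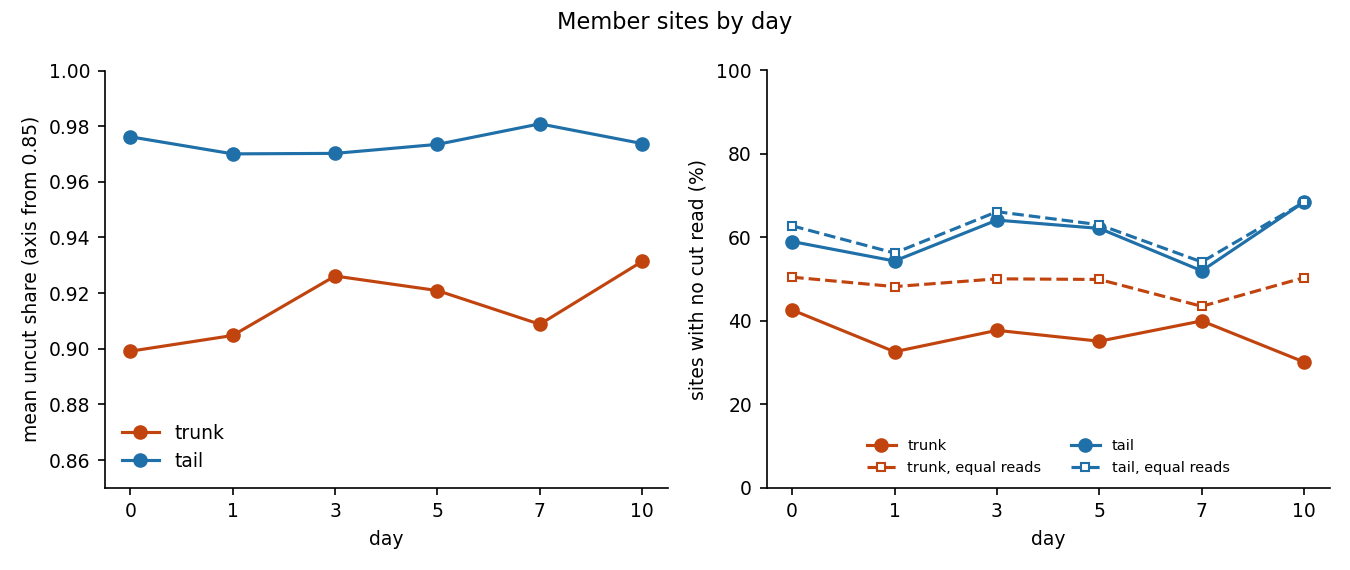
Mean uncut share over member sites (left, axis from 0.85) and percentage of member sites with no cut read (right) by day, with trunk in red and tail in blue. Open squares with dashed lines on the right are the expected percentages at equal reads. Trunk lies below tail on all 6 days in both panels, and on the right the gap is narrower at equal reads.

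The sites just inside the limit of 3 days and just outside it were as follows. The 11 sites used on exactly 3 days had a mean uncut share of 0.928 in trunk and 0.995 in tail. The 39 sites with only 2 such days had 0.861 in trunk and 0.954 in tail. When those 39 were admitted, 14 of 116 sites were called, among them all 12.

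Of the 12 called sites 6 were never listed in a head library, as were 21 of all 77 member sites. In 5 of the called sites head had at least 10 reads on 3 or more days. Head lay below both trunk and tail at 1 of these 5, position 1999 of DN1290_c0_g1_i7, at 0.964 ± 0.0109 (n = 5).

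The reads themselves were also compared over the member sites. Sites and days had been chosen by having at least 10 reads in both tissues, so the counts and sizes given for reads describe the chosen pairs and are no independent test. After division by each library's median over the sites used that day, reads were lower in trunk at 18 sites on 13 contigs and higher at 23 sites on 5 contigs (limma adjusted p under 0.05). That is 23.4% and 29.9% of the 77 sites, or 53.2% together. Of the 23, 15 lay on DN678_c0_g2_i4, where neighbouring sites share reads. Centring on the median trunk to tail ratio, chosen after seeing the data, gave 20 lower and 20 higher, with 18 and 20 of them called the same way, and moved the median difference from -0.0033 to -0.35 on the log2 scale. The total rested on 1 day, since without day 10 there were 10 lower and 4 higher among 68 sites tested. In bulk RNA such a difference cannot be told apart from fewer cells that hold the transcript, and a relative value is not a level per cell.

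The strongest relative deficit in trunk was at position 219 of DN6230_c0_g1_i12 (minus strand, contig length 356 bases). It had 81, 26, 22, 56 and 14 reads in trunk and 560, 214, 783, 160 and 64 reads in tail on days 0, 1, 3, 5 and 7. Tail had more reads on each of these days although its libraries were mostly shallower. The relative difference was -4.92 on the log2 scale (SE 0.642), while the uncut share was 0.998 in trunk and 0.995 in tail and was not called (limma adjusted p = 0.59).

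Position 152 of DN870_c17_g1_i2 (minus strand, contig length 339 bases) differed in relative reads by -3.50 on the log2 scale (SE 0.478). It had 11 to 42 reads a day in trunk and 22 to 177 in tail, and no read was cut in either tissue. Relative reads were also lower in trunk at position 521 of DN11867_c10_g1_i1, by -4.28 on the log2 scale (SE 0.62). There the median was 50.5 reads in trunk and 195 in tail.

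DN155747_c0_g1_i1 held 1.11% ± 0.356 of reads at listed sites in trunk and 17.1% ± 11.8 in tail (SD, n = 6 days), higher in tail on 6 of 6 days. In head it held 28.4% ± 8.66. These percentages count all listed sites, and in tail they include position 537, which no trunk or head library listed. Positions 581 and 339 of DN155747_c0_g1_i1 differed by -4.19 (SE 0.486) and -4.13 (SE 0.477) in relative reads on the log2 scale. DN4494_c2_g1_i2, a contig of 1093 bases with 4 member sites, held 0.119% ± 0.0344 in trunk and 0.943% ± 0.605 in tail. The tail value includes position 775, which no trunk library listed. Relative reads were lower in trunk at 2 of the 4 member sites. At positions 568 and 575 they were not called, at -0.47 and -0.44 on the log2 scale. None of the 4 sites was called for uncut share.

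On the side of higher relative reads in trunk, position 570 of DN678_c0_g2_i4 led with 4.22 on the log2 scale (SE 0.54). It had 5069 to 45732 reads a day in trunk and 30 to 4418 in tail. Positions 4260, 4250, 4212 and 448 of the contig, also higher on every used day, had 3.38, 3.33, 3.13 and 2.90. At position 448 the uncut share was 0.946 ± 0.0165 in trunk and 0.954 ± 0.0120 in tail and was not called with limma (adjusted p = 0.733). The quasi-binomial model called it lower in trunk (adjusted p = 0.0272). Positions 4260, 4250 and 4212 were not past the threshold without day 10 or without the day block, and position 4212 not without day 5 either.

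Of the 12 sites called for uncut share, 5 were also past the threshold for relative reads, beside 53.2% of all 77 member sites. Of the 11 sites with a lower uncut share in trunk, 3 had lower relative reads in trunk and 2 had higher ones. Over all 77 sites these were 23.4% and 29.9%, so the overlap is not read as a result about the called sites. The other 7 of the 12 were not past it.

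Of the contigs with any listed site, trunk listed 1278 and tail 1324, and 901 were in both. There were 377 contigs listed in trunk only (29.5% of the trunk contigs) and 423 in tail only (31.95% of the tail contigs). Most rested on very few reads, with a median of 2 reads in all for those in trunk only and 3 for those in tail only. No read was cut at 348 of the 377 and at 404 of the 423. Sites with at least 10 reads left 159 contigs in trunk only and 182 in tail only. Without both libraries of day 7 there were 503 in trunk only and 282 in tail only, and without day 0 there were 381 and 388. Without the tail library of day 7 alone, a choice made after seeing the data, there were 559 in trunk only and 260 in tail only. Head also listed 268 of the 377 contigs (71.1%) and 237 of the 423 (56.0%).

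On single days the tissue with more contigs changed. Contigs listed in trunk and not in tail on the same day numbered 127, 331, 347, 434, 198 and 464 from day 0 to day 10. Those listed in tail and not in trunk numbered 418, 104, 172, 193, 618 and 165. Tail had more on days 0 and 7, and trunk on the other 4 days. On day 7 both libraries were deep, with 649432 reads in trunk and 657796 in tail, and on day 0 there were 112555 reads in trunk and 46356 in tail.

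**Figure D5:**
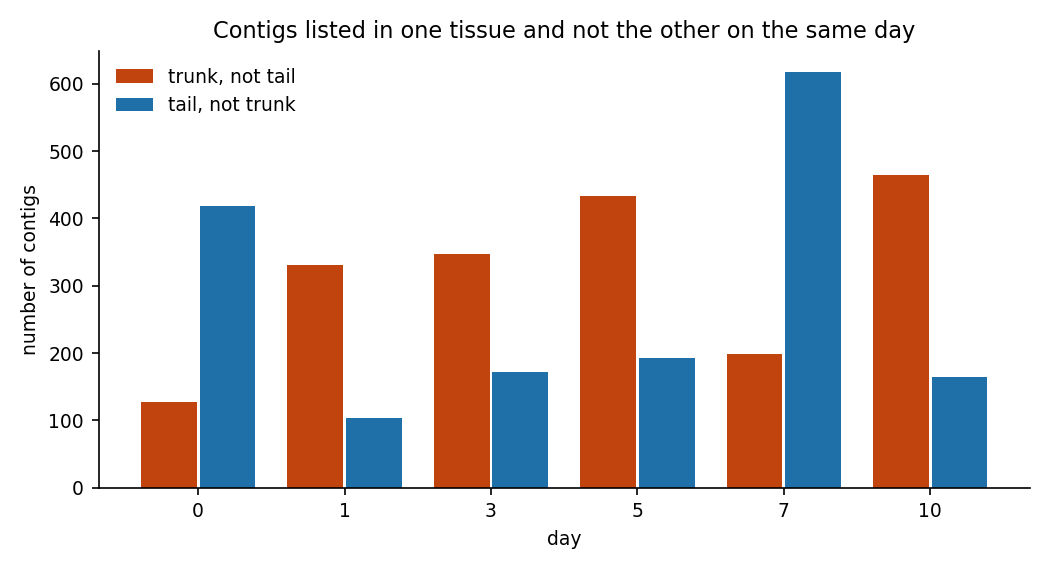
Number of contigs listed in 1 tissue and not in the other on the same day (vertical axis) by day (horizontal axis), with trunk in red and tail in blue. The tail bars are taller on days 0 and 7, at 418 and 618 contigs, and the trunk bars on the other 4 days.

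A smaller group came back on several days. There were 85 contigs listed in trunk only on 3 or more days and 81 listed in tail only, and 4 of each were listed on all 6 days. At least 10 reads at a site on 3 or more days were reached by 18 contigs of trunk only and 9 of tail only.

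Among the 4 trunk contigs listed on all 6 days DN9703_c2_g1_i4, of 377 bases, had the most reads, with 2 sites and 397 reads over 6 days, of which 1 was cut, and no head library listed it. DN3536_c0_g1_i1 had 107 reads, DN7096_c1_g1_i1 had 47 and DN1207_c0_g1_i15 had 12, each over 6 days, and DN3976_c0_g1_i1 had 90 reads over 5 days. Head listed these 4 on 1 to 4 days. Over 4 days, position 268 of DN81838_c2_g1_i1 (minus strand, contig length 332 bases) had 720 reads in trunk and was mostly cut, with 184 uncut reads, a share of 0.256, against 0.0129 in the control. Neither tail nor head listed that contig, which was chosen after its values were seen.

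In tail only, DN9229_c2_g1_i1, of 1784 bases, had 3 sites and 180 reads over 6 days, none of them cut. DN2799_c0_g1_i2 had 55 reads, DN130500_c1_g1_i2 had 50 and DN2045_c0_g1_i1 had 39 over 6 days. DN8520_c0_g3_i2 was listed on 5 days with 6 sites and 229 reads. The last 2 were on no head list, and the other 3 were listed in head on 2 to 4 days.

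Some sites were listed in 1 tissue only although their contig was read in both. Position 537 of DN155747_c0_g1_i1, on the minus strand, was listed in tail on all 6 days, with a median of 2456 reads (249 to 8606) and an uncut share of 0.9997 ± 0.00028. It was on no trunk or head list. Only 17 bases away, position 554 was listed in trunk on 5 days, on 62, 103, 469, 184 and 383 reads, with uncut shares between 0.963 and 0.996. The control share at position 537 was 0.411 (1402 of 3411 reads, 95% Wilson interval 0.395 to 0.428), so under the limits read from the values a trunk library with reads there would have been listed at an uncut share of 0.511 or more. Whether trunk had no reads at position 537 or a lower uncut share cannot be told apart. Tail listed position 554 on day 7 only, at 0.919 on 7699 reads.

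Position 775 of DN4494_c2_g1_i2, on the minus strand, showed the same arrangement, in tail on 6 days with a median of 155.5 reads and an uncut share of 0.998 ± 0.0043. In trunk the nearest site with at least 10 reads was position 575, 200 bases away, with 33 to 686 reads a day. Closer by, trunk listed position 808 on day 0 only, on 5 reads. The control share at position 775 was 0.784, and under the same limits listing would need an uncut share of 0.884. Position 4480 of DN4102_c0_g3_i3, on the plus strand, was in tail on 5 days with a median of 28 reads, beside a control of only 6 reads.

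In the opposite direction, positions 505, 510 and 660 of DN1290_c0_g1_i7, on the minus strand, were listed in trunk on 6 days and in no tail library. Their median reads were 37.5, 33.5 and 32.5, and their uncut shares averaged 0.904 ± 0.0731, 0.996 ± 0.011 and 1. The control had 4, 3 and 6 uncut reads there, so under these limits a tail library could list the sites only with 11 uncut reads of its own. The nearest tail site with at least 10 reads, position 1275, lay 615 to 770 bases away and had a median of 157 tail reads. Position 308 of DN8983_c0_g1_i2, on the plus strand, was also listed in trunk only, on 4 days with a median of 36 reads, none of them cut. The control had 7 uncut of 8 reads there, so a tail library would need 11 uncut reads and an uncut share of 0.975. The nearest tail site with at least 10 reads lay 300 bases away and had a median of 21.5 tail reads.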

How the data were processed

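Per the file headers, each deposited table holds 1 tissue library beside the control, with 1 row for a motif position and strand on a contig, and deposited counts of uncut and of all reads. The deposited fraction is uncut over all reads, and the deposited m6A level, also a fraction, is that of the library minus that of the control. The deposited other value, contig length in bases, served for positions. The control's headers read fto together with IVT, and this work takes those columns to be the IVT control. The submitters' processing notes name HISAT2 2.4.2, fastp 0.20.0 and FastQC. The counting program and the contig assembly's version are not given in the sources used here. A read assigned to several contigs or cut at a neighbouring motif would change these counts.

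Uncut shares were fitted with limma 3.58.1 (R 4.3.3), with day as a block and Benjamini-Hochberg adjustment over all 77 sites. Sites without any cut read were never called, counted in the adjustment and were left out of the variance prior. SEs are those of the moderated fit, and SDs are over days. Relative reads (log2 of reads, minus the library median) were fitted likewise, as a description only, since the rule chose sites and days by reads. For the log2 odds, 0.5 was added to the uncut and to the cut reads. Wilson intervals are at 95%, and a share of 0 is given with the limit that 3 counts allow. Both cover counting error only. The scripts were tested on simulated data. The members, lists and tests were chosen with earlier results of these data known. Planned sign-flip tests of the mean uncut share and of the share without cut reads were not run, because their sites were so chosen. Named sites were all called sites, the 5 largest differences of each sign with 1 sign on every day, and the 5 largest called read differences of each sign with 1 sign on every day. Sites and contigs listed in 1 tissue were named by days and then by reads. Gene lists planned for stem cells, patterning, the m6A machinery and tissue markers had no names to match. Contig sequences were not used here.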

Additional observations from a re-analysis of the deposited data

Results flagged for a closer look

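Of 34 sets of daily values tested, 7 held a day whose gap to the nearest other day was unusually large for the range of its group. A chance rate of about 1 in 20 sets was taken for the rule, but it does not hold for shares at their limit of 1. Where all other days are 1, the gap fills the whole range however small it is. That was so in tail at position 225 of DN1930_c0_g2_i6 and position 1999 of DN1290_c0_g1_i7. The 7 sets are therefore not compared with chance. The causes were not tested.

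In trunk, position 521 of DN11867_c10_g1_i1 had an uncut share of 0.515 on day 10, against 0.130 to 0.191 on the other days. Position 225 of DN1930_c0_g2_i6 had its highest trunk value, 0.541, and its lowest tail value, 0.895, on the same day 10, against 0.286 to 0.338 and 1 on the other days. Position 1275 of DN1290_c0_g1_i7 had 0.576 in trunk on day 7, against 0.780 to 0.875. At position 1999 of that contig tail had 0.9995 on day 7, against 1, on the most reads of any tail day. In tail, position 3307 of DN678_c0_g2_i4 had 0.942 on day 0, against 0.984 to 0.991 on the other days. The tail library of day 7 had 657796 reads at listed sites, against 12642 to 90729 in the other tail libraries.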

How the results depend on the processing

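The 12 calls for uncut share, of 77 sites, became 32 with the quasi-binomial model, 36 on the log2 odds scale and 19 without the day block. With 1 day left out, 9 to 13 of 67 to 76 sites were called. Trunk and tail of the same day did not always deviate together (correlations -0.443 to 0.449 over 38 sites, the best match on 2 of 6 days), so a shared day is not shown to pair the libraries. The 41 calls for relative reads, of 77 sites, became 24 of 77 without the replicate block and 27 of the 59 sites left without the most-read contig. Leaving out 1 day gave 14 to 37 of 67 to 76 sites. The mean difference moved from -0.0589 to -0.0373 with sites on all 6 days, -0.0127 with reads summed and -0.0744 without the most-read contig. The share without cut reads moved from -23.7 to -13.1 percentage points at equal reads. The 800 contigs in 1 tissue only became 341 with at least 10 reads, and 769 to 846 with 1 day left out. No site named for uncut share or relative reads changed direction in that value in the alternatives run. Sites chosen after their values were seen were not part of this check. Tail had fewer median reads than trunk at 67 of 77 sites, which limits what could be detected there.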
